A study of Mus musculus with 12 samples.

Results

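Genes of the cell cycle were followed in the cervix of pregnant mice given a progestin. The 40 genes were chosen by name, as known markers of proliferation, and each was read from the probe set (a group of short probes for a transcript) with that gene symbol and the highest mean over the 12 arrays. The platform held 18194 named genes in all. Of the 40, 39 had a probe set with their symbol in the annotation used here. Ccnb1, the cyclin B1 gene, had none and has no value. Of the 39, 25 passed the filter on low signal, a log2 intensity above 4 on at least 6 of the 12 arrays, and 14 did not. By role, 14 of the 40 serve DNA replication, 19 mitosis and 5 the entry into S phase, and 2, Mki67 and Ccna2, were kept apart as general markers.

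All animals were CD1 mice, an outbred stock, at gestation day 15. The 6 samples of the MPA group came from dams injected under the skin with 1 mg of medroxyprogesterone acetate, a progestin made as a stable agonist of the progesterone receptor, for 48 h. The 6 vehicle samples came from dams given the same volume of ethanol. The labels name no other allele or agent, leave unstated if the arrays of a group stand for separate dams, and give cervix as the tissue, which holds epithelium, stroma and muscle. The p values therefore reflect only how far these arrays spread, and that spread may be technical. In such bulk RNA fewer dividing cells and less RNA per dividing cell cannot be told apart.

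A dividing cell copies its DNA in S phase and separates the copies in mitosis, and each phase has its own wave of transcription. Replication genes such as the Mcm helicase subunits are activated by E2F transcription factors as a cell leaves G1, while mitotic genes such as the B cyclins come later, through B-Myb and FoxM1, at a promoter element called the cell cycle genes homology region (CHR). In the pregnant cervix the epithelium proliferates and the stroma is remodelled before birth, and progesterone is known to restrain estrogen-driven division of uterine epithelium.

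The promoters of the replication and mitosis genes differed in the motifs they held. RefSeq promoters (GRCm38.p6), each 250 bases before to 50 after a transcription start, matched 30 of the 40 genes by symbol. They were searched on both strands for an E2F motif, TTCCCGC or TTGGCGC, for a CHR motif, TTTGAA or TTCGAA, and for the CCAAT box, which binds NF-Y. An E2F motif stood in 8 of 13 replication promoters (61.5%), in 2 of 15 mitosis promoters (13.3%) and in 6.81% of all 32851 promoters. The 13 replication promoters came from 12 genes, with Mcm7 counted more than once, each time with an E2F motif. A CHR motif stood in 11 of 15 mitosis promoters (73.3%), in 3 of 13 replication promoters (23.1%) and in 19.2% of all promoters. CCAAT was frequent in both, with 13 of 15 mitosis and 10 of 13 replication promoters, against 37.4% of all promoters. In 2 places an E2F motif overlapped a CCAAT box. Over the promoters of all genes tested on the arrays, the E2F share was 11.9% and the CHR share 13.7%. These shares are descriptions without a test, and a match is a string of letters and not a proven site.

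The promoters of 6 measured genes, picked because they held a match there, are shown as the 180 bases before the start. E2F and CHR motifs are in capitals. Other measured genes did not all hold the motif of their role. The Mcm2 promoter held a CHR and no E2F motif, and those of Pcna and Rrm2 held neither. Of 9 promoters of measured mitosis genes, 6 held a CHR motif, and that of Cenpe was among those without. Mcm5 lies at chr8:75109329-75109508 (plus strand) and Mcm6 at chr1:128359706-128359885 (minus strand), both replication genes with 2 E2F motifs and no CHR motif in the stretch. Cdk1 at chr10:69352913-69353092 (minus strand) carries 1 E2F and 2 CHR motifs. Cdc20 at chr4:118437344-118437523 (minus strand) and Ube2c at chr2:164769749-164769928 (plus strand), both mitotic, carry 1 CHR motif each and no E2F motif. Mki67 at chr7:135716380-135716559 (minus strand) carries both kinds, 1 E2F and 2 CHR.
Mcm5: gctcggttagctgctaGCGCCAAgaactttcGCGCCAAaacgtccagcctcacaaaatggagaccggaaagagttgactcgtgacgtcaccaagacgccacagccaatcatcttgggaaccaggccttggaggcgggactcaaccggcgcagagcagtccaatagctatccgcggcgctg
Mcm6: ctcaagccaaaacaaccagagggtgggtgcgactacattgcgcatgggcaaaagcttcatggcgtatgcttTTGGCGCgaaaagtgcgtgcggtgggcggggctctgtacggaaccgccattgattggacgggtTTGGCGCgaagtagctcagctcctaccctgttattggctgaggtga
Cdk1: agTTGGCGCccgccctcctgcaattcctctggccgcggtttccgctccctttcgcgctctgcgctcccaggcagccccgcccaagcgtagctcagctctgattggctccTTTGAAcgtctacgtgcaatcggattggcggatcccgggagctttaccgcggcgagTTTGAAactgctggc
Cdc20: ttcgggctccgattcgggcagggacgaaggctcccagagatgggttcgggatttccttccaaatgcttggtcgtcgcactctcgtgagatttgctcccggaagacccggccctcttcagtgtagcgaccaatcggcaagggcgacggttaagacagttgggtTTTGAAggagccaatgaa
Ube2c: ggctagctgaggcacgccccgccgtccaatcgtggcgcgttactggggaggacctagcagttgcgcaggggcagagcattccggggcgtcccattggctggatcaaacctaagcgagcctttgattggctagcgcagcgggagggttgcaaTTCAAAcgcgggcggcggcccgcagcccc
Mki67: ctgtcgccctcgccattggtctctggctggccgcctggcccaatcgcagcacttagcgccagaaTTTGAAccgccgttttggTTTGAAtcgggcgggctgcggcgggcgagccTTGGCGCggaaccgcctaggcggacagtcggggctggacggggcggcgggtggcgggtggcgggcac
The capitals of Mcm5 and Ube2c read on the opposite strand (GCGCCAA is TTGGCGC reversed and complemented, TTCAAA is TTTGAA). In Cdc20 the CHR motif begins 18 bases before the start, and in Ube2c 29 bases before it.

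The deposited values had been normalized between arrays, which in large part sets their general signal alike. Median linear intensity (not logged) lay between 6.62 and 6.86, and between 8583 and 8960 genes exceeded a log2 value of 4. In marker genes a pair of arrays stood apart: MPA 2 had the lowest fibroblast and smooth muscle markers of all 12, and MPA 5 the lowest markers of stratified epithelium. The arrays were washed on 3 fluidics stations, of which station 2 alone held both groups (MPA 1 and MPA 2, vehicle 5 and vehicle 6). The stratified epithelium of a cervix was present, with Krt13, a keratin of moist stratified linings, at a log2 intensity of 10.56 in MPA and 11.11 in vehicle. By limma with Benjamini-Hochberg adjustment over the 8795 genes tested, 1 gene (0.0114%) passed an adjusted p under 0.05, and it was no cell cycle gene. None of the 25 measured cell cycle genes passed. At an unadjusted p under 0.05 there were 2 of the 25, both with higher values in MPA, where 3.21% of all genes tested were higher at that level and 1.8% lower. In none of the 25 were the 6 MPA arrays all on one side of the 6 vehicle arrays, as they were in 0.341% of all genes tested. The words higher and lower below describe the sign of a measured difference between group means that did not pass the test.

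The replication genes had higher means in MPA without exception: 11 of 11 measured, with a median log2 difference (MPA minus vehicle) of 0.30, beside 56.3% of all genes tested with a positive sign and a median of 0.02. Differences ran from 0.05 to 0.42. Mcm6, a subunit of the helicase that opens the double strand, had log2 intensities from 9.65 to 10.32 in MPA with a median of 9.99, and from 9.21 to 10.02 in vehicle with a median of 9.57. All 6 MPA arrays lay above the vehicle median and 3 above the highest vehicle array, so the groups overlapped only through vehicle 3, which lay within the MPA range. The difference was 0.42 (SE 0.14, 95% interval 0.12 to 0.72, limma adjusted p = 0.897), a 1.34-fold level in MPA. Mcm6 had the smallest p of the 25 genes, at rank 99 of 8795.

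Cdt1, which loads the helicase onto replication origins, ran from 6.15 to 6.89 in MPA with a median of 6.52 and from 5.85 to 6.54 in vehicle with a median of 6.01. Again all 6 MPA arrays exceeded the vehicle median, and 3 exceeded every vehicle array. The log2 difference was 0.40 (SE 0.17, limma adjusted p = 0.989). Gmnn encodes geminin, the inhibitor that holds Cdt1 back once S phase has begun. It ran from 5.75 to 7.18 in MPA and from 5.58 to 6.75 in vehicle, with a difference of 0.35 (SE 0.27). The loader and its inhibitor had differences of like size, and MPA 3 and MPA 5 were low for both within their group.

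The other helicase subunits varied more between arrays than between groups. Mcm5 ran from 7.79 to 8.80 in MPA (median 8.23) and from 7.34 to 8.30 in vehicle (median 7.97), a log2 difference of 0.34 (SE 0.19). Mcm4 ran from 8.15 to 8.93 in MPA (median 8.57) and from 7.96 to 8.59 in vehicle (median 8.39), a difference of 0.25 (SE 0.14). Mcm2 ran from 4.93 to 5.96 in MPA (median 5.42) and from 4.73 to 5.44 in vehicle (median 5.18), a difference of 0.30 (SE 0.18). For Mcm5, Mcm4 and Mcm2 the limma adjusted p was 1.00, and vehicle 5 was the lowest vehicle array in each. Mcm3 had a difference of 0.38 (SE 0.26) and Mcm7 of 0.06 (SE 0.22), with MPA 2 the highest array for both.

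Genes of nucleotide supply and the sliding clamp differed among themselves. Rrm2, the regulated subunit of ribonucleotide reductase, ran from 8.64 to 9.46 in MPA (median 8.74) and from 8.003 to 9.33 in vehicle (median 8.47), a log2 difference of 0.30 (SE 0.22). It was 0.18 without vehicle 5 and 0.19 without MPA 6. Its partner Rrm1 had 0.05 (SE 0.20). Pcna, the clamp that holds DNA polymerase on its template, ran from 9.18 to 10.04 in MPA (median 9.51) and from 9.28 to 9.84 in vehicle (median 9.46), with a difference of 0.05 (SE 0.15, 95% interval -0.26 to 0.37). The medians of Pcna were close, and the MPA range reached beyond the vehicle range at both ends. Cdc6 and Cdc45, which act in origin loading and firing, and Tyms, the thymidylate synthase, did not pass the signal filter, with no array above 3.87. Of 8 further probe sets for the measured replication genes that passed the filter, 7 had the same sign as the brightest, and the exception was a dimmer Mcm4 probe set at -0.06.

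**Figure D1:**
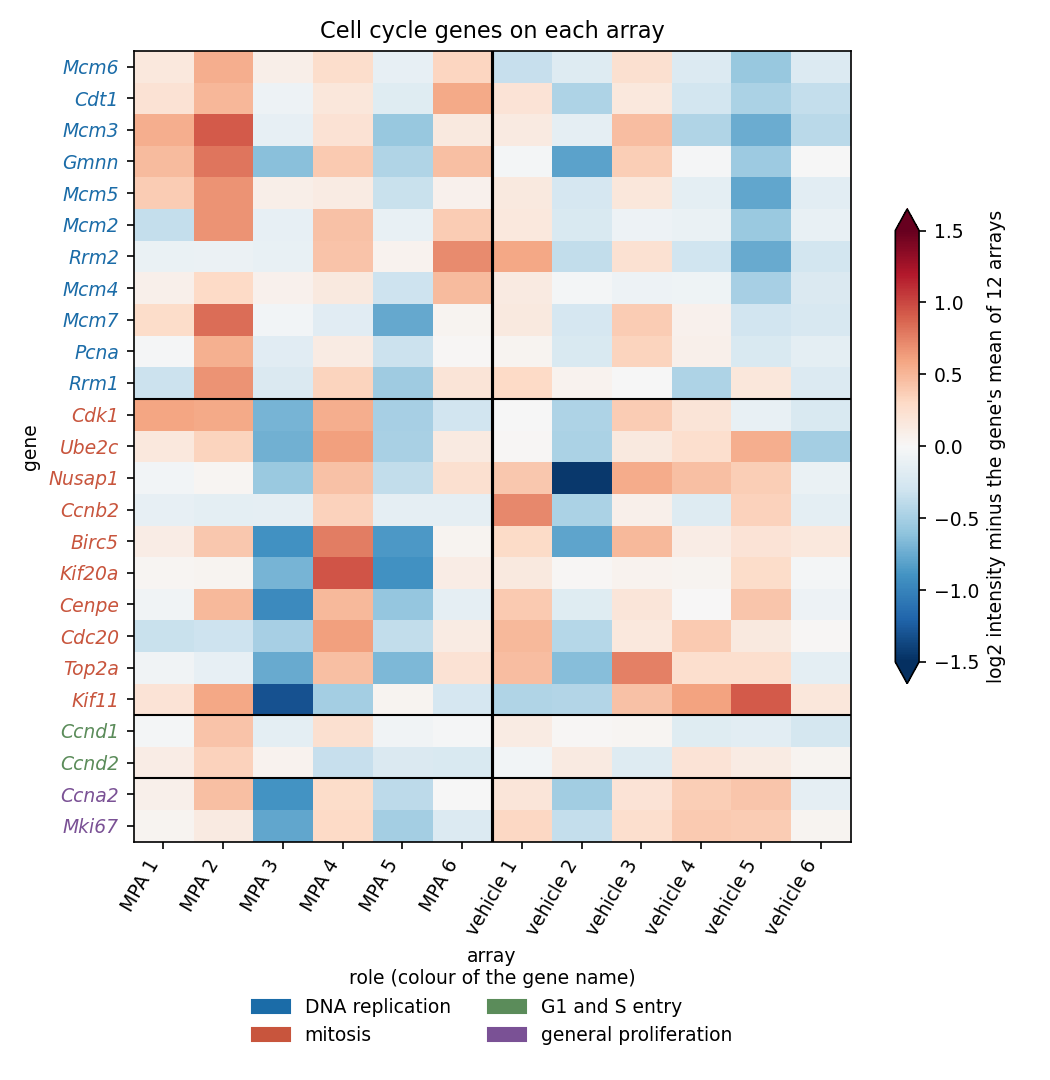
Heat map of the 25 measured genes (rows, names coloured by role) on the 12 arrays (columns, MPA left of the black line), showing log2 intensity minus the mean of each gene, with colours saturating at 1.5 in either direction. Replication rows are mostly red on MPA 2 and blue on vehicle 5, while mitosis rows are mostly blue on MPA 3, MPA 5 and vehicle 2.

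The mitosis genes did not share that direction. Of 10 measured, 2 had higher and 8 lower means in MPA, with a median log2 difference of -0.16 and a range from -0.41 to 0.08, where 43.7% of all genes tested had a negative sign. Top2a, the topoisomerase that untangles sister chromosomes, ran from 5.23 to 6.43 in MPA (median 5.89) and from 5.34 to 6.73 in vehicle (median 6.23). Only 1 MPA array exceeded the vehicle median and 2 lay below every vehicle array, MPA 3 and MPA 5. The difference was -0.31 (SE 0.26, 95% interval -0.87 to 0.25, limma adjusted p = 1.00). It was -0.19 without vehicle 3 or without MPA 3, -0.21 without MPA 5 and -0.47 without vehicle 2.

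Cdc20 activates the anaphase promoting complex, which starts chromosome separation. It ran from 5.70 to 6.82 in MPA (median 5.89) and from 5.78 to 6.69 in vehicle (median 6.35), with a log2 difference of -0.26 (SE 0.20). MPA 4 gave the highest value of all 12 arrays, while 4 of the other MPA arrays lay between 5.70 and 5.90. Kif11, the motor that pushes the spindle poles apart, ran from 3.48 to 5.37 in MPA (median 4.69) and from 4.34 to 5.71 in vehicle (median 5.10), with a difference of -0.41 (SE 0.32). Kif11 had the largest negative difference of the 25 measured genes and also the largest SE, and without MPA 3 its difference was -0.19. Cdk1, the kinase that drives entry into mitosis, ran from 3.82 to 5.11 in MPA (median 4.64) and from 4.05 to 4.89 in vehicle (median 4.45). Its difference was 0.08 (SE 0.25), and MPA arrays were both the 3 highest and the 2 lowest of the 12. Within station 2 the difference of Cdk1 was 0.75.

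The remaining mitosis genes stayed within their spread. Cenpe, a kinetochore motor, had a log2 difference of -0.25 (SE 0.24) and Kif20a, a motor of cytokinesis, -0.16 (SE 0.25). Birc5, the survivin subunit of the chromosomal passenger complex, had -0.15 (SE 0.30), Ccnb2, a B cyclin, -0.11 (SE 0.18), and Nusap1, a spindle microtubule protein, -0.08 (SE 0.32). Ube2c, the ubiquitin-conjugating enzyme of the anaphase promoting complex, had 0.01 (SE 0.25). For Kif20a the 6 vehicle arrays spanned only 5.56 to 5.86, against 4.68 to 6.53 in MPA. Foxm1, Plk1, Aurka, Aurkb, Cenpa, Bub1, Bub1b and Tpx2 did not pass the signal filter, and no value can be read for them. They include the transcription factor of the mitotic wave, several mitotic kinases other than Cdk1, and genes of the spindle checkpoint. Tpx2 was nearest to passing, with 4 MPA arrays and 1 vehicle array above a log2 value of 4. Kif11, Cdk1, Ccnb2 and Nusap1 passed with 11 arrays above it, and the other 21 measured genes with all 12.

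**Figure D2:**
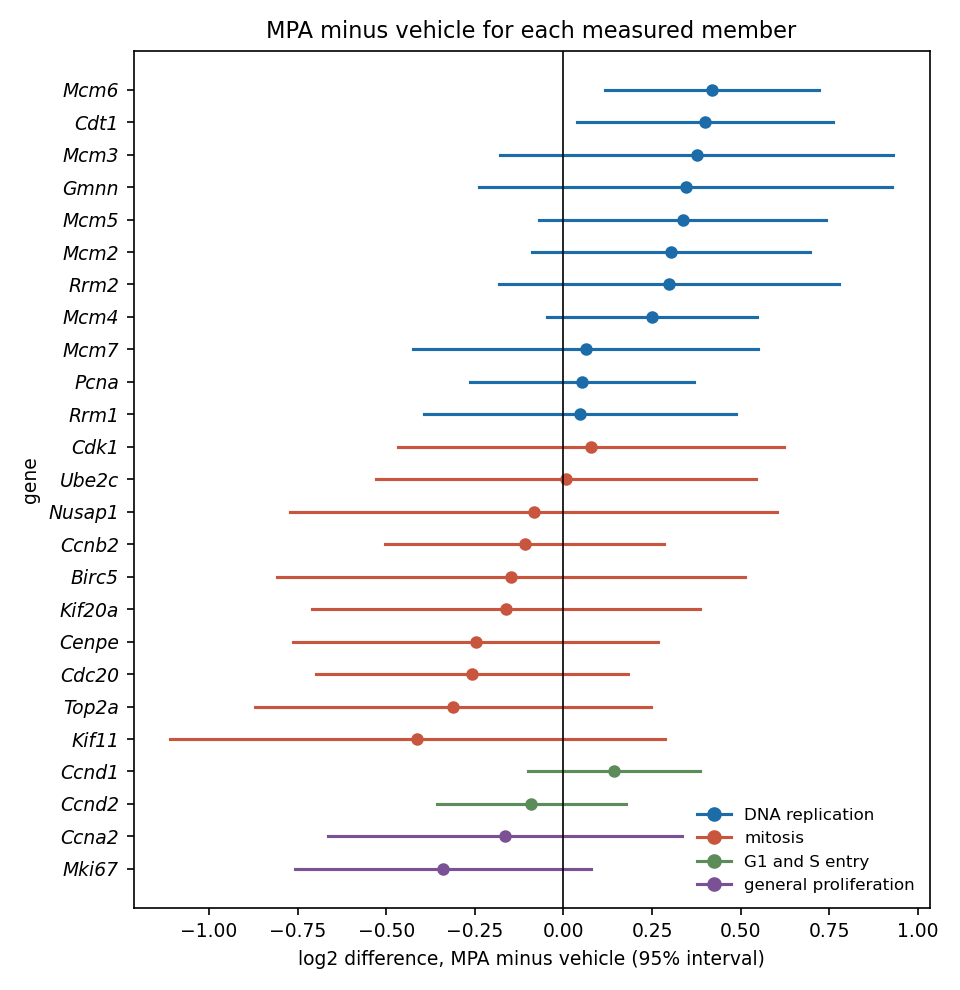
Log2 difference, MPA minus vehicle (x axis), with its 95% interval for each of the 25 measured genes (y axis), 6 arrays per group, coloured by role. The 11 replication genes all lie right of 0 and 8 of 10 mitosis genes left of it, and only the intervals of Mcm6 and Cdt1 leave out 0 before adjustment.

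Mki67, the antigen used to count cycling cells in tissue sections, sided with mitosis. It ran from 8.60 to 9.68 in MPA with a median of 9.30 and from 9.03 to 9.77 in vehicle with a median of 9.66. A single MPA array, MPA 4, exceeded the vehicle median, and MPA 3 and MPA 5 lay below every vehicle array. The log2 difference was -0.34 (SE 0.19, 95% interval -0.76 to 0.08, limma adjusted p = 1.00), a 0.79-fold level in MPA. Without MPA 3 it was -0.22. Ccna2, the cyclin A of S phase and early mitosis, ran from 5.39 to 6.74 in MPA (median 6.32) and from 5.76 to 6.70 in vehicle (median 6.48), with a difference of -0.16 (SE 0.23). Without MPA 3 the difference of Ccna2 was -0.00176.

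The D cyclins, which couple growth signals to the cycle, differed in sign. Ccnd1 ran from 8.23 to 8.81 in MPA (median 8.35) and from 8.12 to 8.50 in vehicle (median 8.31), a log2 difference of 0.14 (SE 0.11, 95% interval -0.10 to 0.39). It was 0.0701 without MPA 2 and 0.41 within station 2. Ccnd2 ran from 9.18 to 9.87 in MPA (median 9.44) and from 9.33 to 9.73 in vehicle (median 9.60), a difference of -0.09 (SE 0.12, 95% interval -0.36 to 0.18). Its 6 dimmer probe sets split, with 4 of the opposite sign. The E cyclins Ccne1 and Ccne2 and E2f1, the factor that switches on the replication genes, did not pass the signal filter. Their highest value on any array was 3.21 for Ccne1, 3.62 for Ccne2 and 3.77 for E2f1.

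**Figure D3:**
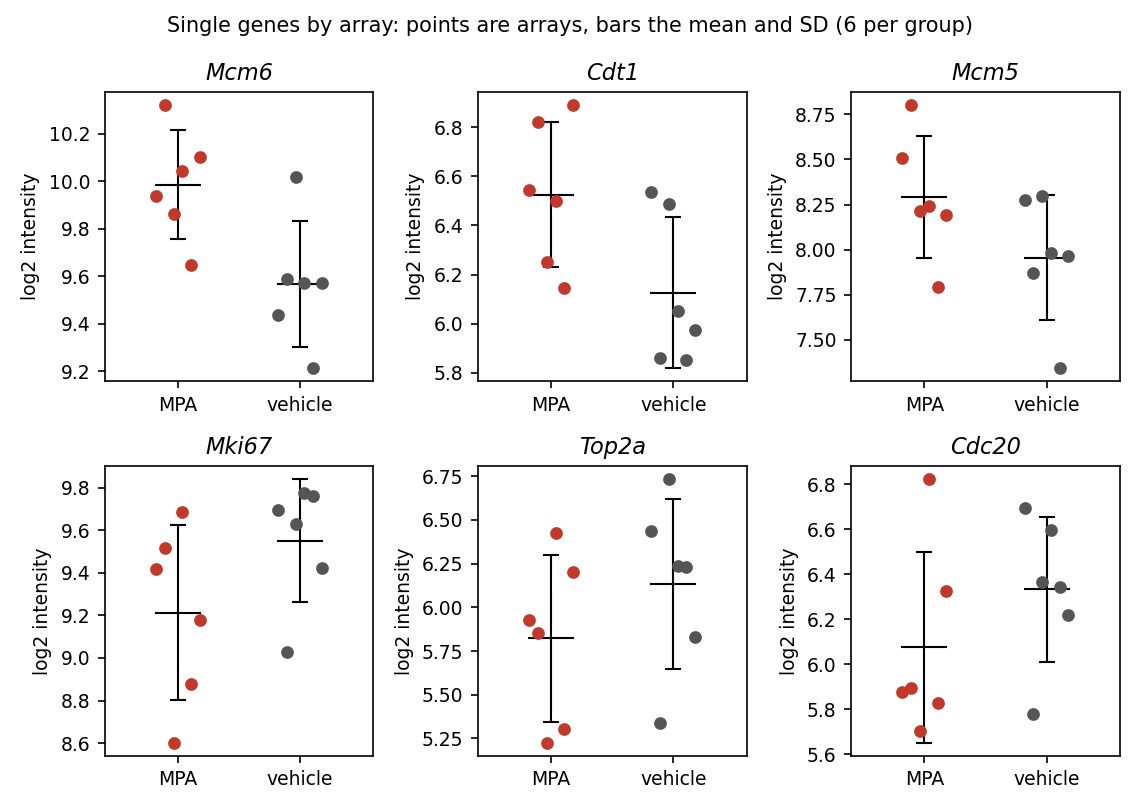
Log2 intensity (y axis) of 3 replication genes (Mcm6, Cdt1, Mcm5) and of Mki67, Top2a and Cdc20 in MPA and vehicle. Points are arrays, and bars give the mean and SD of 6 arrays. The replication genes have the higher mean in MPA and the other 3 the lower, with overlapping groups in all 6.

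The comparison of replication with mitosis was made within each array, as the mean of the 10 mitosis genes minus the mean of the 11 replication genes after each gene was centred on its own mean. The value lay between -0.61 and 0.24 in MPA and between -0.27 and 0.81 in vehicle. It was negative on 5 of 6 MPA arrays, MPA 4 excepted, and positive on 5 of 6 vehicle arrays, vehicle 2 excepted. Its mean was -0.21 ± 0.29 in MPA and 0.21 ± 0.36 in vehicle (SD, n = 6 each), a difference of -0.43 on the log2 scale. This composite of chosen genes was given no test. Taken separately, the replication mean was 0.13 ± 0.32 in MPA and -0.13 ± 0.26 in vehicle, and the mitosis mean -0.08 ± 0.44 in MPA and 0.08 ± 0.34 in vehicle (SD, n = 6 each). The difference was 0.26 for replication and -0.16 for mitosis.

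**Figure D4:**
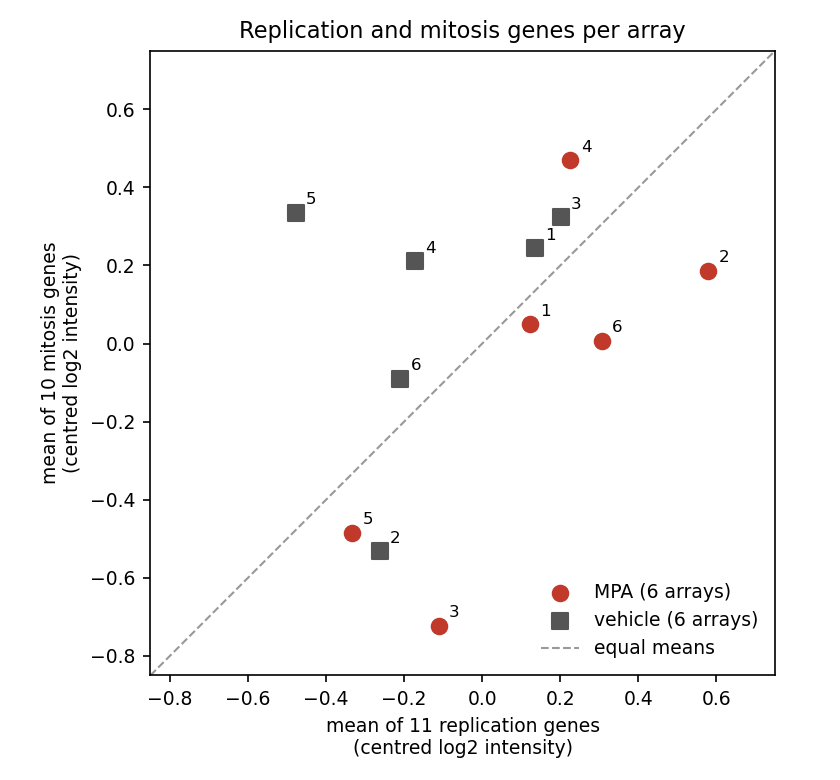
Mean of 11 replication genes (x axis) against mean of 10 mitosis genes (y axis) on each array, both as centred log2 intensity, with the replicate number beside each point. On the dashed line both means are equal: 5 of 6 MPA arrays lie below it and 5 of 6 vehicle arrays above it.

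Some single arrays weighed on these values. Without MPA 2, whose replication mean of 0.58 was the highest of the 12, 8 of 11 replication genes were higher in MPA and their median difference was 0.22. With both MPA 2 and MPA 5 left out, 11 of 11 were higher with a median of 0.33. The mitosis median was less firm: -0.05 without MPA 5, -0.06 without MPA 3, -0.07 without MPA 2 and MPA 5, -0.33 without MPA 4 and -0.31 without vehicle 2. The difference between mitosis and replication ran from -0.52 to -0.31 when each array was left out in turn, the weakest being without vehicle 5, and was -0.40 without MPA 2 and MPA 5. Within fluidics station 2, with 2 arrays per group, the replication median was 0.74, the mitosis median -0.11 and the difference between the means -0.70. All 11 replication genes were higher in MPA there, and 6 of 10 mitosis genes lower. Pcna had 0.44 there, Top2a -0.14 and Mki67 -0.13. The 4 arrays of station 2 include MPA 2 and vehicle 5. Of the 12 arrays, vehicle 5 had the lowest replication mean (-0.48) and the highest value of mitosis minus replication (0.81). The larger values within station 2 therefore lean on these arrays. Station 4 held MPA arrays alone and station 1 vehicle arrays alone, and there station and treatment cannot be told apart.

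Markers of stratified and of simple epithelium were low on the arrays where the mitosis genes were low. The 11 measured markers of basal and stratified epithelium (of 13 listed, with Krt5, Krt14 and Trp63 among them) all had lower means in MPA, with a median log2 difference of -0.34. Their summed linear intensity ran from 8675 to 31535 in MPA and from 18431 to 29182 in vehicle. Their centred mean was -0.17 ± 0.75 in MPA and 0.17 ± 0.29 in vehicle (SD, n = 6 each). It was above 0 on 4 of 6 MPA arrays and on 5 of 6 vehicle arrays. MPA 5 weighed heavily on the MPA means of these markers, and their differences without it are not given here. The centred mean was -1.59 on MPA 5, -0.31 on MPA 3 and -0.31 on vehicle 2, the 3 lowest of the 12. These were also the 3 arrays with the lowest mitosis means (-0.48, -0.72 and -0.53). For the 7 measured markers of simple epithelium (of 8) the same 3 arrays were lowest, at -0.45, -0.19 and -0.29. Of those 7 markers, 3 were higher and 4 lower in MPA, with a median of -0.11. The 8 fibroblast markers were all measured and higher in MPA (median 0.15), but stood at -1.75 on MPA 2, the array with the highest replication mean. Their summed intensity ran from 12151 to 38148 in MPA and from 17219 to 30447 in vehicle. Macrophage markers were higher in MPA for 6 of 6 measured (of 8), with a median of 0.64. At an unadjusted p under 0.05 there were 4 of these 6, where 3.21% of all genes tested were higher at that level. Aif1 had 0.93 (SE 0.21, limma adjusted p = 0.592). Its 6 MPA arrays all lay above the 6 vehicle arrays, and 0.341% of all genes tested had groups that did not overlap. The largest marker differences were in genes of blood and fetal tissue and of plasma cells. Hbb-y, an embryonic globin, ran from 2.89 to 5.33 in MPA and from 4.11 to 9.88 in vehicle, a log2 difference of -2.71 (SE 0.76, limma adjusted p = 0.863). Afp, made by yolk sac and fetal liver, had -1.30 (SE 0.44), and the other 5 listed markers of this kind were dim or not on the table. Jchain, of antibody-secreting cells, ran from 4.07 to 7.70 in MPA and from 3.14 to 5.04 in vehicle, a difference of 1.97 (SE 0.59, limma adjusted p = 0.863), while the other 5 listed markers of B and plasma cells were dim or not on the table. No gene of these lists passed the test, and their part in the cell cycle values was not tested.

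**Figure D5:**
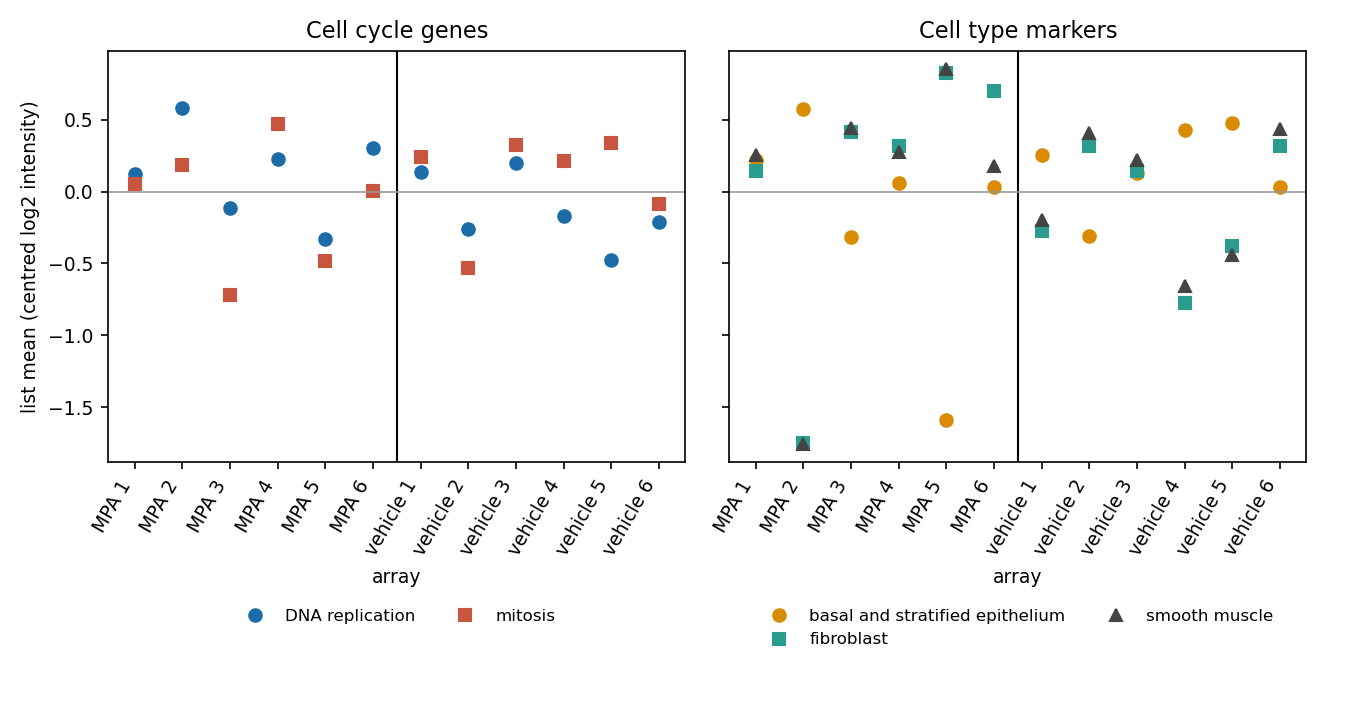
Centred log2 means on the 12 arrays (x axis, MPA left of the line) of the replication and mitosis genes (left) and of markers of stratified epithelium, fibroblasts and smooth muscle (right). MPA 2 is low in both stromal lists and highest in replication, and MPA 5, MPA 3 and vehicle 2 are lowest in both the epithelial and the mitosis list.

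Other genes of the same pathways, listed by function, had medians of the same sign, nearer to 0, with single genes on both sides. Of 15 further replication genes measured (of 24), 11 were higher and 4 lower in MPA, with a median log2 difference of 0.11 and 0 passing over all genes. Gins2, part of the active helicase, had 4.91 ± 0.41 in MPA and 4.47 ± 0.20 in vehicle (SD, n = 6 each), a difference of 0.45 (SE 0.18, limma adjusted p = 0.982). Pold1, the catalytic subunit of polymerase delta, went the other way with -0.20 (SE 0.13). The largest difference in the list was that of Cdc7, a kinase that fires origins, at 0.56 (SE 0.40). An E2F motif stood in 13 of 27 promoters of this list (48.1%) and a CHR motif in 6 (22.2%).

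Of 16 further mitosis genes measured (of 32), 5 were higher and 11 lower, with a median of -0.11, and 0 passed. Cdca8 and Incenp encode partners of Birc5 in the chromosomal passenger complex. Cdca8 had 8.91 ± 0.26 in MPA and 9.31 ± 0.35 in vehicle (SD, n = 6 each), a difference of -0.39 (SE 0.17, limma adjusted p = 0.996), and Incenp had -0.29 (SE 0.14). Cenpf, a kinetochore protein, had the lowest value of the list at -0.47 (SE 0.28). A CHR motif stood in 24 of 31 promoters of this list (77.4%) and an E2F motif in 5 (16.1%). At an unadjusted p under 0.05 there was 1 of the 15 replication genes (higher), 1 of the 16 mitosis genes (lower) and 1 of 16 genes measured in a list of inhibitors, quiescence genes and G1 kinases (lower). Over all genes tested the share at that level was 3.21% higher and 1.8% lower, so that 1 gene in lists of this size is near the background.

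The last of these was Cdkn2b, the p15 inhibitor of the kinases that partner the D cyclins. It ran from 5.83 to 6.65 in MPA (median 6.42) and from 6.56 to 7.74 in vehicle (median 6.81), with a log2 difference of -0.59 (SE 0.20, limma adjusted p = 0.897). Vehicle 4 was the highest array at 7.74, and without it the difference was -0.44. Among the other inhibitors, Cdkn1a, the p21 gene, had -0.35 (SE 0.25) and Cdkn1b, the p27 gene, 0.19 (SE 0.19). Ccng1, a cyclin induced by p53, had 0.16 (SE 0.10). The list also held genes that drive the cycle, the D cyclin kinases Cdk4 (0.13, SE 0.17) and Cdk6 (-0.16, SE 0.27) and the D cyclin Ccnd3 (0.03, SE 0.11). Over its 16 measured genes, drivers included, the median was -0.04, with 6 higher and 10 lower and 0 passing.

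Within the groups, correlations between genes were higher inside each role than across roles. After the group means were removed, the median Pearson correlation over the 12 arrays was 0.67 among the 55 pairs of replication genes, 0.68 among the 45 pairs of mitosis genes and 0.39 for the 110 pairs across roles. It was 0.11 between these 21 genes and all other genes tested. Mki67 correlated with the mitosis genes at a median of 0.82 and with the replication genes at 0.40, and Ccna2 at 0.79 and 0.41. These medians describe arrays that share tissue composition and normalization, the pairs share genes, and they carry no test.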

How the data were processed

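RNA of 12 cervix samples was measured on Affymetrix Mouse430_2 arrays, per the file headers, after amplification from 100 ng, per the labels' protocols. For 45101 probe sets the authors deposited intensity, not logged, made with GCRMA per the submitters' processing notes (version not given there). It corrects background by probe sequence and normalizes between arrays, so that dim genes are pressed towards a floor. The instrument records deposited for each array, of other content, gave the fluidics station.

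Log2 was taken with no pseudocount. Of the probe sets, 34958 had 1 gene symbol, 932 several and 9211 none in the platform annotation, and 34754 were matched to RefSeq by Entrez number. The groups were compared with limma 3.58.1 (R 4.3.3), MPA minus vehicle, over the 8795 genes that passed the filter, with no covariates and Benjamini-Hochberg adjustment. The test was also run on data simulated from the real means and spreads. There each gene varied independently, so variation shared by the genes of an array was not covered. The number of arrays limits the precision. The genes, roles, marker lists and motifs were chosen with earlier results of these data known. Named in full are 13 genes fixed by name, where measured, the 3 members of each role and the 2 genes of each further list with the smallest p. Genes outside that rule are given as the rest of their role, and Cdkn1a, Cdkn1b, Cdk4, Cdk6, Ccnd3, Cdc7, Cenpf and the marker genes were named after their values were seen. Alternatives covered filter, probe sets, normalization, variance model, pseudocount, station, replicate number and left-out arrays. Figures used matplotlib 3.10.9.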

Additional observations from a re-analysis of the deposited data

Results flagged for a closer look

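Over 68 groups of 6 arrays checked, 4 had a single array set far from the rest, where chance gives about 1 in 20. The check covered, in each treatment, the measured cell cycle genes and the genes of the further lists named by the smallest p. It also covered the replication mean, the mitosis mean and their difference. Marker genes, marker means and genes named after their values were seen were not checked. Ccnb2 was 4.76 on MPA 4, where the other MPA arrays lay between 4.27 and 4.28. Birc5 was 4.25 on vehicle 2, below the other vehicle arrays from 5.16 to 5.53, and Nusap1 was 3.99 on the same array, below 5.33 to 5.99. Gins2 was 4.87 on vehicle 3, above 4.37 to 4.41 on the other vehicle arrays. For Ccnb2 and Gins2 those other arrays lay close to the filter limit, a log2 value of 4.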

How the results depend on the processing

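None of the measured cell cycle genes was called under any of the 11 settings or with any of the 12 arrays left out. The 1 call over all genes became 0 without the filter on dim genes, with the replicate block, within station 2, and without MPA 2 and MPA 5, and ran from 0 to 1 with each array left out (1 only without vehicle 1). The replication median was 0.74 with the station as a block and within station 2, which rest on the same 4 arrays, MPA 2 and vehicle 5 among them. It ran from 0.21 to 0.37 with each array left out. The mitosis median ran from -0.33 to -0.05 likewise and the difference of mitosis and replication from -0.52 to -0.31. Counts of replication genes higher (8 to 11 of 11 with each array left out) and of mitosis genes lower (6 to 10 of 10 likewise) were added after the data were seen. Without the filter on dim genes, 12 of 14 replication genes were higher, 10 of 18 mitosis genes were lower, the mitosis median was -0.06 and the difference of mitosis and replication -0.29. With array weights, 9 of 11 replication genes were higher. With the filter at a log2 value of 6, 3 mitosis genes were left, 2 of them lower. Small differences changed sign: Ccnd2 was 0.0155 with all probe sets averaged, and with the station as a block or within station 2 Ccnd2 was 0.15, Ccna2 0.13 and Pold1 0.0673. Pcna was -0.00641 with array weights and ran from -0.0486 to 0.124, and Cdk1 from -0.0336 to 0.224, with each array left out. The cause was not tested. Of the 15 mitosis promoters, 7 held a CHR motif in the 250 bases before the start alone, against 17.1% of all promoters. The E2F spelling TTCCCGC stood in 0 of the 15, and in 4.6% of all promoters. Of the 13 replication promoters, 6 held an E2F motif before the start alone and 6 held TTCCCGC. Arrays with the same replicate number did not deviate together (r across genes from -0.60 to 0.05, 0 of 6 correlating best with their own number), so the numbers are not taken as pairs. Dim signal limits the account: 14 of the 40 genes lay near the floor. Some measured genes were dim too. Mean log2 intensity in MPA and vehicle was 4.36 and 4.46 for Ccnb2, 4.55 and 4.47 for Cdk1, and 4.59 and 5.00 for Kif11.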
